A study of Homo sapiens with 6 samples.

Results

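The genes described here are 10 genes of polyamine synthesis and catabolism, out of 46427 genes in the table of read counts. They are ODC1, AMD1, SRM, SMS, SAT1, SMOX, PAOX, AZIN1, OAZ1 and OAZ2, and were taken by gene symbol. The list was chosen on the basis of values of these same libraries, the difference between CCN3 knockdown and control cells, so the values of that difference are given for its members as a description and without a p. All 10 genes passed the filter on low counts. RNA was measured in Hs578T, an established triple-negative breast cancer cell line, grown with serum. Both groups had been infected with pSUPER retrovirus and differ by the hairpin, a control shRNA in shCTRL cells and 1 CCN3 shRNA, number 2 of the study, in shCCN3 cells, with 3 libraries each. The cells were stable lines made with 1 hairpin each, so an effect of the hairpin or of the line cannot be told apart from an effect of CCN3. The design text calls the samples independent biological replicates and does not say what was repeated, so the spread between them may be partly technical.

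Polyamines are small, positively charged molecules that bind RNA and other acidic molecules, and growing cells keep large pools of them. Ornithine decarboxylase (ODC1) makes putrescine from ornithine. Spermidine synthase (SRM) and spermine synthase (SMS) then add aminopropyl groups, which come from S-adenosylmethionine after AMD1 has decarboxylated it. In the other direction SAT1 acetylates spermidine and spermine, PAOX oxidises the acetylated forms, and SMOX oxidises spermine directly and releases hydrogen peroxide. The antizymes OAZ1 and OAZ2 bind ODC1 protein and send it to the proteasome, and the antizyme inhibitor AZIN1 binds the antizymes in place of ODC1. Much of this control acts on translation and protein stability, which read counts of mRNA do not measure.

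The libraries held between 56159110 and 68393177 counts, in which 3 counts are worth 0.0439 to 0.0534 CPM. CPM is the count of a gene scaled to the library's TMM-normalised total, and a limit set by a number of counts covers counting error only. Fewer expressing cells and less RNA per cell cannot be told apart in such bulk RNA. CCN3, the target of the hairpin, was at 98.1 to 103 CPM in the shCTRL libraries and at 46.5 to 47.4 CPM in the shCCN3 libraries, a log2 fold change of -1.10 (SE 0.055, adjusted p = 1.34e-06, edgeR's quasi-likelihood test). All 6 markers of mesenchymal breast cancer cells were expressed, with a summed level of 14156 to 14329 CPM in shCTRL and 13417 to 13632 CPM in shCCN3 libraries. VIM, CD44 and SPARC were lower in every shCCN3 library, with log2 fold changes of -0.14, -0.25 and -0.04. FN1, ZEB1 and AXL went the other way, with log2 fold changes of 0.18, 0.09 and 0.04 and overlapping groups. ESR1, EPCAM, CD3E, ITGAM and CDH5 were at or near 0. PGR and ERBB2 were expressed, and the sum of the receptor list was 74.6 to 85.6 CPM in shCTRL and 80.6 to 83.3 CPM in shCCN3 libraries. Of the 4 epithelial markers, KRT8 and KRT18 were expressed, and the sum of the list was 174 to 192 CPM in shCTRL and 226 to 278 CPM in shCCN3 libraries. These markers went opposite ways, KRT18 from a mean of 163 to 232 CPM and KRT8 from 20.0 to 13.9 CPM. The endothelial list had 1 expressed gene, PECAM1, of 3, with a sum of 3.11 to 4.46 and 3.22 to 3.73 CPM. Of the 4 leukocyte markers, CD68, a lysosomal protein, was expressed, and the sum of the list was 95.2 to 107 CPM in shCTRL and 58.0 to 59.6 CPM in shCCN3 libraries. The part of the mesenchymal, epithelial and leukocyte differences in the results was not tested. Among the shCCN3 libraries, replicate 2 stood apart, with a chi-square per degree of freedom of 28.3 and 34.4 against the others, which differed from each other by 7.87. The shCTRL libraries were uneven too, with 5.87 between replicates 1 and 2, 9.47 between 2 and 3, and 17.2 between 1 and 3. Members and other pathway genes whose call changed without shCCN3 replicate 2 are named below.

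Of the 10 genes, 2 were higher and 3 were lower in shCCN3 cells by edgeR with the false discovery rate held at 0.05. Among the 17419 genes tested, 33.4% passed that limit, 16.2% as higher and 17.3% as lower, and since the contrast chose the list, nothing is read from the count. SAT1 and AZIN1 were the higher genes, and SMOX, ODC1 and SRM the lower ones. In 6 of the 10 genes the CPM of the groups did not overlap, as in 46.3% of all genes tested. The median log2 fold change of the 10 genes was -0.04, and that of all genes tested was 0.01. SMOX, SAT1 and ODC1 had the widest differences, and PAOX the smallest. The enzymes AMD1 and SMS and both antizymes had log2 fold changes between -0.09 and 0.16.

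**Figure D1:**
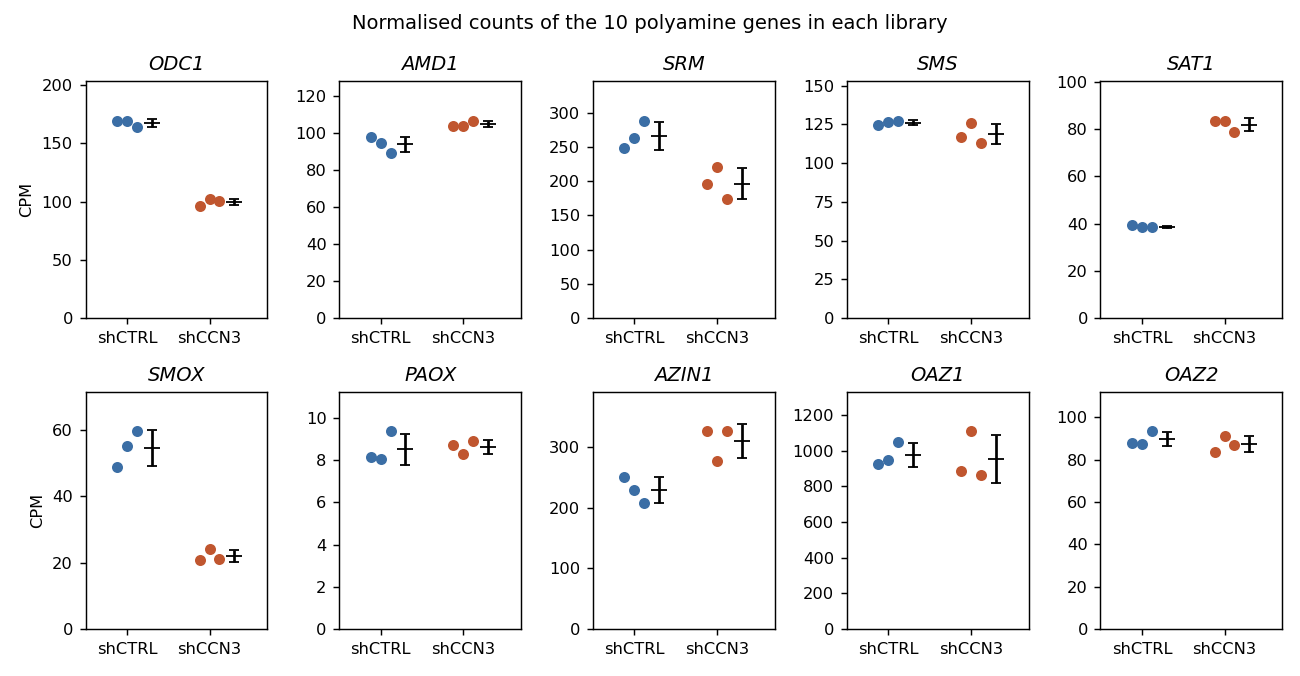
Normalised counts (CPM, linear axis from 0) of each polyamine gene in the 3 shCTRL and 3 shCCN3 libraries. Points are libraries and the black marks are mean ± SD (n = 3); SAT1 and AZIN1 sit higher, and ODC1, SRM and SMOX lower, in every shCCN3 library.

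Among the synthetic enzymes, ODC1 differed most. Its mRNA was at 169, 169 and 164 CPM in the shCTRL libraries and at 96.4, 102 and 100 CPM in the shCCN3 libraries. The groups were far apart, with an SD of 3.34 CPM among shCTRL and 2.94 CPM among shCCN3 libraries. ODC1 was 1.68-fold lower, a log2 fold change of -0.75 (SE 0.055). SRM was at 248, 263 and 289 CPM in shCTRL and at 196, 220 and 174 CPM in shCCN3 libraries. Its libraries were more scattered than those of ODC1, and the groups did not overlap. The log2 fold change of SRM was -0.44 (SE 0.093), and ran from -0.52 to -0.36 with each library left out in turn. AMD1 was at 97.4, 94.4 and 89.2 CPM in shCTRL and at 104, 103 and 107 CPM in shCCN3 libraries. All shCCN3 libraries were above all shCTRL libraries by a small margin, and the gene did not pass the adjusted limit. It passed when shCCN3 replicate 2 was left out, and its log2 fold change, 0.16 with all libraries, was 0.17 there. SMS was at 124, 126 and 127 CPM in shCTRL and at 117, 126 and 113 CPM in shCCN3 libraries. The groups of SMS overlapped through shCCN3 replicate 2, and the log2 fold change was -0.09 (SE 0.060).

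The catabolic enzymes went apart. SAT1 was at 39.2, 38.3 and 38.4 CPM in the shCTRL libraries and at 83.2, 83.5 and 78.8 CPM in the shCCN3 libraries. Every shCCN3 library had more than 2 times the SAT1 mRNA of any shCTRL library. The log2 fold change was 1.08 (SE 0.058), or 2.12-fold higher. SMOX was at 49.0, 55.3 and 59.7 CPM in shCTRL and at 20.7, 24.3 and 21.2 CPM in shCCN3 libraries. SMOX thus had the widest difference of the 10 genes, 2.48-fold lower with a log2 fold change of -1.31 (SE 0.094). PAOX, the least expressed of the 10, was at 8.14, 8.05 and 9.37 CPM in shCTRL and at 8.71, 8.28 and 8.90 CPM in shCCN3 libraries. Its groups overlapped, and its log2 fold change of 0.02 changed sign without shCTRL replicate 1 or 2 or shCCN3 replicate 3, in a range of -0.02 to 0.09. SAT1 and PAOX act in sequence on the same route, and the mRNA of SAT1 alone was higher.

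Among the regulators, AZIN1 was at 251, 230 and 209 CPM in shCTRL and at 326, 278 and 326 CPM in shCCN3 libraries. The groups did not overlap, and shCCN3 replicate 2 was the lowest of its group. The log2 fold change of AZIN1 was 0.43 (SE 0.087), and 0.51 without that library. With each library left out in turn it ran from 0.37 to 0.51. OAZ1 was the most abundant of the 10 genes. It was at 926, 946 and 1052 CPM in shCTRL and at 884, 1109 and 865 CPM in shCCN3 libraries, so that shCCN3 replicate 2 was the highest of all 6 libraries and the others of its group the lowest. The log2 fold change of OAZ1 was -0.03 (SE 0.098) with all libraries, and -0.15 without shCCN3 replicate 2. It was above 0, at most 0.03, without shCTRL replicate 3 or either of the other shCCN3 libraries. OAZ2 was at 87.7, 87.5 and 93.4 CPM in shCTRL and at 83.7, 91.1 and 86.9 CPM in shCCN3 libraries, and its groups overlapped. Within a group, the coefficient of variation of the 10 genes ran from 1.27% for SAT1 to 9.80% for SMOX in shCTRL cells and from 1.65% for AMD1 to 14.3% for OAZ1 in shCCN3 cells. Their medians were 5.69% and 4.92%, beside 5.15% and 7.41% for the 10123 tested genes expressed at or above the level of PAOX.

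To compare levels between genes, CPM was divided by the length of all annotated exons of each gene in kilobases (RPKM). In shCTRL cells OAZ1 led with 284 ± 19.7 RPKM (SD, n = 3) and was followed by SRM, SMS, ODC1, AZIN1, SMOX, SAT1, AMD1 and OAZ2, with PAOX last at 3.74 ± 0.324 RPKM (SD, n = 3). No neighbours in this order overlapped between shCTRL libraries, although SMS at 58.3 RPKM and ODC1 at 56.4 RPKM were close. In shCCN3 cells AZIN1 stood above ODC1, with 48.3 ± 4.33 against 33.5 ± 0.992 RPKM (SD, n = 3 each), and SAT1 reached 32.8 ± 1.06 RPKM (SD, n = 3), so that the levels of ODC1 and SAT1 overlapped. SMOX went from the sixth to the ninth place, at 7.49 ± 0.653 RPKM (SD, n = 3). SMS stayed in the third place and PAOX in the last. The order rests on the lengths used: SAT1 has 2498 bases in the union of its exons and 1135 in its longest transcript. With the longest transcript SAT1 stood above SMOX in shCTRL cells as well, and above ODC1, AZIN1 and SMS in shCCN3 cells. There SAT1 had rank 3 and SMS rank 5.

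Ratios taken within 1 library do not depend on how libraries are scaled to each other. The ratio of ODC1 to SAT1, in RPKM, was 3.63, 3.72 and 3.58 in the shCTRL libraries and 0.975, 1.03 and 1.07 in the shCCN3 libraries. The means were 3.64 and 1.02, and with the longest transcript as length, an alternative chosen after seeing the data, they were 1.85 and 0.521. The ratio was therefore lower in every shCCN3 library with either length, while which of the genes had more mRNA in shCCN3 cells depended on the length. The ratio of SAT1 to SMOX was 0.943, 0.817 and 0.759 in shCTRL and 4.73, 4.06 and 4.39 in shCCN3 libraries. With the longest transcript its means were 1.46 and 7.62, so SAT1 exceeded SMOX in shCTRL cells too. The summed RPKM of SAT1, SMOX and PAOX was 35.9 to 39.8 in shCTRL and 42.6 to 45.3 in shCCN3 libraries (means 62.2 and 86.2 with the longest transcript). The summed RPKM of ODC1, AMD1, SRM and SMS was 259 to 279 in shCTRL and 193 to 224 in shCCN3 libraries (means 362 and 280 with the longest transcript). The ratio of AZIN1 to ODC1 was 0.590 to 0.684 in shCTRL and 1.26 to 1.56 in shCCN3 libraries, and that of OAZ1 to ODC1 was 4.73 to 5.56 and 7.47 to 9.38. Both ratios were higher in every shCCN3 library, the first through higher AZIN1 and lower ODC1, the second mainly through lower ODC1. These ratios combine the values given above and are not separate evidence.

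The position of the genes bears on 1 of them in particular. SMOX lies on chromosome 20 (GRCh38, from 4148828 to 4187727, plus strand), and each of the 24 tested genes nearest to it was below 0 in log2 fold change. Their median was -0.61, and none was above -0.17. The log2 fold change of SMOX minus that median was -0.70, and 22 of the 24 neighbours were higher than SMOX. The whole of chromosome 20 had a median of -0.12. The part of this neighbourhood in the value of SMOX was not tested, and DNA copy number was not measured. SAT1 on chromosome X (from 23783173 to 23786210, plus strand) had neighbours with a median of 0.09, and all 24 were lower than SAT1. SMS lies on the same arm of X, and SAT1 is among the genes nearest to it. ODC1 on chromosome 2 (from 10439968 to 10448327, minus strand) had neighbours with a median of -0.06, of which 23 were higher than ODC1. The neighbours of SRM on chromosome 1 had a median of -0.21, those of AZIN1 on chromosome 8 one of 0.20. For SRM and AZIN1 the difference from the neighbours, -0.23 and 0.23, was about as large as the neighbours' own median. AMD1 on chromosome 6 was near its neighbours at 0.05 and below the chromosome's median of 0.34. The medians near SMS, PAOX, OAZ1 and OAZ2 lay between -0.10 and 0.14.

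ODC1 and SRM are textbook targets of the MYC transcription factor, which binds the E-box CACGTG with its partner MAX. Both were lower in shCCN3 cells, so their starts were searched, and the part of MYC in their values was not tested. RefSeq promoters of 300 bases on GRCh38.p14, with 250 bases before and 50 after the start, were at hand for 7 of the 10 genes, in 10 entries. SMOX, PAOX and AZIN1 were not analysed here in this way, so ODC1 and SRM were the only members called lower that could be searched. On either strand, CACGTG occurred in entries of ODC1 and SRM alone among these 7 genes, and in 7.26% of all 35116 promoters. The stretches of 30 bases around each match are shown because they hold the motif, with the E-box in capitals. Counted from the start as 0, the ODC1 matches begin at -29 and 5 in 1 of its 2 entries. Their stretches are at chr2:10448024-10448053 and chr2:10447990-10448019 on the minus strand. Both lie within the annotated gene, whose first base is at 10448327, and the entry that starts there held no CACGTG. The SRM match begins at -199, at chr1:11060200-11060229 on the minus strand.
ODC1 upstream match: ccgggccccgggCACGTGtgcggcgcgcct
ODC1 downstream match: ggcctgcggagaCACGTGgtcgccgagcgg
SRM match: ccggccgggcccCACGTGgcccctggagcg

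The promoter of SAT1, the member with the largest positive fold change, held none of the 4 motifs searched. Beside CACGTG these were the TATA box TATAAA, the GC box GGGCGG and the AP-1 motif TGACTCA, each on both strands. The 150 bases before its start (chrX:23783023-23783172, plus strand) are printed with no capitals for that reason. The GC box GGGCGG was found in entries of each of the other 6 genes and in 45.0% of all promoters. CACGTG was also absent from AMD1, SMS, OAZ1 and OAZ2, none of which was called with all libraries, so its absence is not particular to SAT1. Among the 7 genes, the exact bases TATAAA occurred only in OAZ1, after the start (11.5% of all promoters), and TGACTCA only in OAZ2 (4.95%). Only exact matches were counted, so near forms such as TATAAG, present before the start in entries of ODC1 and AMD1, were left out. The search therefore does not show that these genes lack a TATA box. None of the motifs contains another, and a match in a sequence is a description, not a bound site. The GC content of the entries was 65.3% to 82.0%, with SRM highest, against a median of 58.7% over all promoters.
SAT1: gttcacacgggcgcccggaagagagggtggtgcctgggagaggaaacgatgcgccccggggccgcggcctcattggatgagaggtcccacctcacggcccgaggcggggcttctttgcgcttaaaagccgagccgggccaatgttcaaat

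Beyond the members, 7 lists held 59 genes of the rest of the pathway and of the MYC network, which had 11 of them. The choice of the members did not use these lists. They were drawn up with earlier results of these data known, so their calls may not be independent of the contrast. Of the 59 genes, 47 were expressed enough to be tested. Among these, 9 were called higher, 4 were called lower and 34 did not pass, beside the 16.2% and 17.3% of all genes. The MYC network gave 3 of the higher calls and 1 of the lower calls. Groups of libraries did not overlap in 20 of the 47, beside 46.3% of all genes. Their median log2 fold change was -0.005, against 0.008 for all genes tested. Genes named here outside the rule for naming were picked after their values were seen.

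Of 13 genes of polyamine transport, 8 were tested, 2 rose and 1 fell. SLC3A2, the heavy chain of amino acid exchangers that has also been linked to polyamine export, was at 157, 170 and 180 CPM in shCTRL and at 383, 452 and 389 CPM in shCCN3 libraries. It rose by 1.27 on the log2 scale (SE 0.082, adjusted p = 5.58e-06, edgeR). Its 24 neighbours on chromosome 11 had a median of 0.13, and all of them lay before its start (from 62671673 to 62855885). CAV1, the caveolar coat protein tied to polyamine uptake, was at 652, 625 and 642 CPM in shCTRL and at 403, 399 and 418 CPM in shCCN3 libraries. It fell by 0.65 on the log2 scale (SE 0.053, adjusted p = 2.06e-05, edgeR). CAV1 lies on chromosome 7, where its neighbours had a median of -0.44 and the chromosome one of -0.43, and the part of that shift in the fall was not tested. SLC12A8 rose by 0.18 on the log2 scale with an adjusted p of 0.0484 from edgeR, which was 0.0614 to 0.140 in the 6 fits that each left out 1 library. ATP13A2 and ATP13A3, lysosomal and endosomal polyamine pumps, had log2 fold changes of -0.01 and -0.04 with adjusted p-values of 0.930 and 0.840 from edgeR.

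Of 12 genes of ornithine and arginine supply, 9 were tested, 2 rose and 1 fell. SLC7A2, a carrier of cationic amino acids, was at 4.63, 4.12 and 3.41 CPM in shCTRL and at 7.46, 5.65 and 7.27 CPM in shCCN3 libraries, a rise of 0.75 on the log2 scale (SE 0.152, adjusted p = 0.0047, edgeR). SLC7A1, a carrier of the same kind with more mRNA, rose by 0.29 on the log2 scale with an adjusted p of 0.0374 from edgeR. The call of SLC7A1 was lost (adjusted p 0.0737 to 0.138, edgeR) when any library but shCCN3 replicate 2 was left out. ASL, which releases arginine from argininosuccinate, fell by 0.48 on the log2 scale (adjusted p = 0.00389, edgeR), with means of 29.2 ± 2.55 and 20.9 ± 2.04 CPM (SD, n = 3). The arginase gene ARG1 was listed at 0 in all libraries, and ARG2 was below 1 CPM. OAT, which links ornithine to proline and glutamate, did not pass (log2 fold change 0.13, adjusted p = 0.195, edgeR).

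Of 9 genes of the methionine cycle and of methionine salvage, which supply and recover the aminopropyl donor, all were tested, 2 rose and 1 fell. AHCY, which clears S-adenosylhomocysteine, rose from 261 ± 3.96 to 302 ± 9.38 CPM (SD, n = 3 each; adjusted p = 0.0151, edgeR), and its adjusted p was 0.0563 and 0.0805 without shCTRL replicates 1 or 2. MRI1, an enzyme of salvage, fell by 0.19 on the log2 scale with an adjusted p of 0.0452 from edgeR, and this call was lost (adjusted p 0.0547 to 0.168) when any library but shCTRL replicate 1 was left out. MAT1A, the liver form of methionine adenosyltransferase, had 12 to 17 counts in the shCCN3 libraries and 0 in all shCTRL libraries. Set against 3 counts in each shCTRL library, it was at least 5.24-fold higher, at a mean of only 0.238 CPM. MAT2A, the form most tissues use, did not pass (log2 fold change 0.14, adjusted p = 0.0762, edgeR), but did without shCCN3 replicate 2 (adjusted p = 0.0156, edgeR).

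The hypusine branch, in which DHPS and DOHH turn a lysine of the translation factor eIF5A into hypusine with spermidine as the donor, held 5 genes, and none passed the limit with all libraries or with any 1 library left out. EIF5A averaged 1318 ± 49.4 CPM in control and 1347 ± 127 CPM in knockdown libraries (SD, n = 3), with a log2 fold change of 0.03 (SE 0.073, adjusted p = 0.777, edgeR). The log2 fold changes of EIF5A2, DHPS and DOHH were 0.05, -0.05 and -0.005. EIF5AL1 is a near-identical copy of EIF5A, and the division of reads between them is uncertain. None of the 5 tested genes of other acetylation and amine oxidation passed, among them SAT2, a relative of SAT1, with a log2 fold change of -0.11 (adjusted p = 0.526, edgeR). The other antizyme genes did not pass either. OAZ3 was below 1 CPM, and AZIN2 was at 2.42, 2.26 and 3.07 CPM in shCTRL and at 1.44, 2.48 and 1.78 CPM in shCCN3 libraries. The adjusted p of AZIN2 was 0.156 from edgeR, and 0.0186 without shCCN3 replicate 2, which held the highest value of its group.

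Of 11 genes of the MYC network, 9 were tested, 3 rose and 1 fell. MYC was at 48.5, 49.4 and 44.7 CPM in shCTRL and at 74.7, 65.0 and 66.1 CPM in shCCN3 libraries. It rose by 0.53 on the log2 scale (SE 0.075, adjusted p = 0.000593, edgeR). ODC1 and SRM were lower in the same libraries, and the part of the MYC network in their values was not tested. The 24 neighbours of MYC on chromosome 8 had a median of 0.20, and 20 of them were lower than MYC. The part of that shift in the rise was not tested. MXD1, which binds MAX and represses E-box genes, rose by 0.61 (SE 0.102, adjusted p = 0.00162, edgeR), from 7.55 ± 0.613 to 11.5 ± 1.00 CPM (SD, n = 3 each). MXI1, a repressor of the same family, rose by 0.44 (adjusted p = 0.00145, edgeR). MAX, with a log2 fold change of -0.17, missed the limit (adjusted p = 0.0523, edgeR) and passed it without shCCN3 replicate 2 (adjusted p = 0.0489). MGA, which also binds MAX, had a log2 fold change of 0.31 and overlapping groups, and it missed the limit (adjusted p = 0.0837, edgeR) and passed it without shCCN3 replicate 2 (adjusted p = 0.00376). The repressors MNT, MXD3 and MXD4 did not pass. MXD3, with more mRNA than MXD1 or MXI1, averaged 65.4 CPM in shCTRL and 63.6 CPM in shCCN3 libraries (log2 fold change -0.04, adjusted p = 0.813, edgeR). MLX fell by 0.17 with an adjusted p of 0.0456 from edgeR, and 0.0907 to 0.161 when any library but shCCN3 replicate 2 was left out.

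Counting adds some uncertainty for single members. On GENCODE release 29, a second protein-coding model shares 3966 bases with OAZ1 on the same strand, another shares 861 bases with PAOX, and antisense genes run across AZIN1 and OAZ2. The sources do not say whether reads were counted by strand. The processed copies AMD1P3, AMD1P2, AMD1P4, OAZ1P1, SRMP1, SRMP2 and SRMP3 are listed in the table. AMD1P3 had 6 to 19 counts, and the other 6 copies had 0 in every library.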

How the data were processed

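Poly(A) RNA libraries of 3 shCTRL and 3 shCCN3 samples of Hs578T cells were made with a stranded kit. The authors deposited raw read counts per gene, with 1 column a library and no normalization. The submitters' processing notes name bcl2fastq 2.20.0, Trimmomatic, HISAT2 2.1.0, StringTie 2.1.3d, DESeq2 and the build GRCh38, without roles. The annotation and the use of strand are not given in the sources used here. Columns were matched to samples by their names. Counts were normalized with TMM, filtered by group (filterByExpr) and tested with edgeR 4.0.16 (quasi-likelihood test, R 4.3.3) with Benjamini-Hochberg adjustment over 17419 genes. SE is the log2 fold change over the square root of F. DESeq2 1.42.0, other scalings and filters, a replicate block and fits without each library were alternatives. The code was tested on simulated data.

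The members and lists were chosen with earlier results of these data known. The genes named are the members, CCN3, the hypusine and antizyme lists, and listed genes with an adjusted p under 0.05, a fold change of at least 1.5 and 1 CPM. Exon lengths came from GENCODE release 29, positions and promoters from RefSeq (GRCh38.p14). Of the gene IDs, 44698 matched RefSeq, and 24 neighbours were taken by distance between gene centres. A planned comparison of protein sequences was not made.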

Additional observations from a re-analysis of the deposited data

How the results depend on the processing

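The log2 fold changes of SMOX, SAT1, ODC1, SRM and AZIN1 kept their direction under all 12 alternatives, and these 5 genes passed an adjusted p of 0.05 in each of them. The count of members that passed was 5 under most alternatives and 6, with AMD1, with DESeq2 and without shCCN3 replicate 2, while the share of all genes called ran from 20.4% with no filter to 40.5% without shCCN3 replicate 2. The members had between 5 and 6 calls when each library was left out. Replicate numbers did not pair the libraries: same-numbered libraries deviated from their group means with correlations of 0.0891, -0.0256 and -0.0657. With the replicate block, 5 members, 6 other pathway genes as higher and 2 as lower (4 without it) passed. The count of genes in these lists that were lower was also 2 with no filter on low counts and from 2 to 5 when each library was left out. The higher ones numbered 6 to 10 over all alternatives. PAOX and OAZ1, both near 0, kept their sign in 9 of 12 alternatives. CCN3 stayed between -1.12 and -1.09. Adjusted p-values near 0.05 (SLC7A1, SLC12A8, MRI1, MLX, AHCY) depended on single libraries as given above, and the cause was not tested. With the longest transcript as length, 8 of 10 members kept their place in the shCTRL order. The ratios and sums of RPKM moved with the gene length as given above.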
